A study of Homo sapiens with 6 samples.

Results

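The expression of MDM2, MDM4 and 7 genes known as targets of p53 (CDKN1A, GDF15, BBC3, BAX, TP53I3, PPM1D and RRM2B) was examined in HT-1376 cells with and without knockdown of SHMT2. The 9 genes were taken by name from the 63241 genes of the deposited count table, and each gene ID was matched to its symbol with GENCODE release 44. HT-1376 is an established cell line from a human bladder carcinoma, and it is known to carry a mutated form of p53. SHMT2 encodes the mitochondrial serine hydroxymethyltransferase, which turns serine into glycine and a one-carbon unit. Cells labelled WT were transfected with a non-targeting siRNA (siNC, 3 libraries), and SHMT2-knockdown cells with 1 siRNA against SHMT2 (siSHMT2, 3 libraries). Both groups received a lipid transfection reagent, and all cells were collected 24 h after transfection. All libraries came from 1 cell line. The study calls the replicates biological, and the labels do not say whether they were separate cultures, so each p-value measures only the spread between these libraries.

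p53 is a transcription factor that responds to DNA damage and other stress by switching on genes of cell cycle arrest, apoptosis and DNA repair. MDM2 is an E3 ubiquitin ligase that binds p53 and marks it for degradation, and MDM4 is a related protein that binds p53 and blocks its activity. p53 in turn activates transcription of MDM2, which closes a negative feedback loop, and mutated p53 often loses the ability to activate its targets. The study described a change in the splicing of an exon of MDM2 after SHMT2 knockdown, and the question taken up here is whether the genes that p53 controls differed between siSHMT2 and siNC. The deposited tables give gene-level values, so inclusion of the exon was not measured here.

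The counts of a library summed to between 533689 and 890574, far below the number of sequenced reads that the study describes, and the reason for this gap was not tested. The 9 genes together held between 67 and 160 of the counts of a library. SHMT2 itself had 15 to 28 counts in siNC and 2 to 9 in siSHMT2. Its FPKM value, a count scaled by gene length and library total, averaged 2.48 ± 2.19 with siSHMT2 and 7.75 ± 1.97 with siNC (SD, n = 3 each). The groups did not overlap, and the two-sided exact permutation p was 0.1, below which 3 libraries against 3 cannot go. Of 13 epithelial and urothelial markers, 12 had counts and UPK3A was at 0, with a summed FPKM of 2140 to 2380 in siNC and 2130 to 2370 in siSHMT2. The defining markers of leukocytes (PTPRC, CD3E, LYZ) and endothelium (VWF, KDR) and the fibroblast markers DCN, LUM and PDGFRB were at 0 in all 6 libraries. Low counts were filtered with edgeR's filterByExpr function, which kept 7207 genes. By the quasi-likelihood test of edgeR, 0 of these genes (0.00%) had a Benjamini-Hochberg adjusted p under 0.05, and 277 (3.84%) had an unadjusted p under 0.05, 140 higher (1.94%) and 137 lower (1.90%) in siSHMT2.

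The skipped-exon event of MDM2 in the study's list of splicing changes concerns exon 6 of the 11 exons of the canonical transcript, at chr12:68824363-68824430 on the plus strand of GRCh38. Its sequence is shown with 20 bases of intron on either side, because the event concerns these bases. The exon is in capitals. The study also shows another skipped-exon event of MDM2, which was not analysed here.

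MDM2 exon 6: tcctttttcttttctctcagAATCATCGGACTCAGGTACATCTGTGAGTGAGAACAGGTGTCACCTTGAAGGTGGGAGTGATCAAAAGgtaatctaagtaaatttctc

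The exon is 68 bases long, and this length leaves a remainder of 2 when divided by 3. It encodes residues 120 to 142 of the 497 residues of the canonical protein. The flanks listed for the event are exon 5 and exon 8, so both of its forms lack exon 7, which has 97 bases. Within the canonical transcript, the form that skips the exon lacks 165 coding bases, stays in frame and encodes 442 residues. The form that includes it lacks the 97 bases of exon 7, leaves the frame after residue 142 and reaches a stop after 174 residues. The exon is part of 6 of the 18 protein-coding MDM2 transcripts in GENCODE release 44.

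The study reports RT-qPCR for the skipped-exon event of MDM2. Its primer list holds the pair below for MDM2 and no other. These primers are shown because their place in the gene decides which MDM2 transcripts they can amplify.

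MDM2-F: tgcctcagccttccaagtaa

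MDM2-R: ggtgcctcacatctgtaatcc

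Both primers matched MDM2 exactly within the noncoding part of exon 11, the last exon, at chr12:68840956-68840975 (plus strand) and chr12:68841115-68841135 (minus strand). The product between them is 180 bases long and starts 2174 bases past the 68-base exon in the spliced canonical transcript, or 16526 bases past it in the genome. The product does not contain the exon or either of its junctions. The GENCODE transcripts were searched for each primer only in the orientation that it has in MDM2. In that orientation MDM2 was the only gene with an exact match to either primer. In the whole genome the forward primer had 91 exact matches and the reverse primer 40, against 1 to 11 for the other primers of the same list.

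The promoters were searched for the p53 consensus site of 20 bases on both strands, in RefSeq windows of 300 bases (GRCh38.p14) that run from 250 bases before to 50 bases after a transcript start. A window was present for 8 of the 9 genes. With at most 2 mismatches, MDM2 was the 1 gene of the 8 with a site, against 0.82% of all 27305 genes with a window. MDM2 had 4 windows and each of the others 1, and 0.649% of all 35116 windows held a site. The site is at chr12:68808923-68808942 on the plus strand, and it begins 94 bases before a transcript start inside the MDM2 gene. It is shown in capitals with 20 bases on either side, since p53 activates transcription of MDM2. Binding of p53 to this site was not measured here, and MDM2 sites with more than 2 mismatches were not listed.

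MDM2 p53 site: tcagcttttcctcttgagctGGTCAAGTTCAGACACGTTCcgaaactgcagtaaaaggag

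The best match in the GDF15 window had 3 mismatches, those of BAX and PPM1D had 4, and those of MDM4, CDKN1A, BBC3 and TP53I3 had 5. These matches describe the letters of short windows only, and the known p53 sites of several of these genes lie further from the start.

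**Figure D1:**
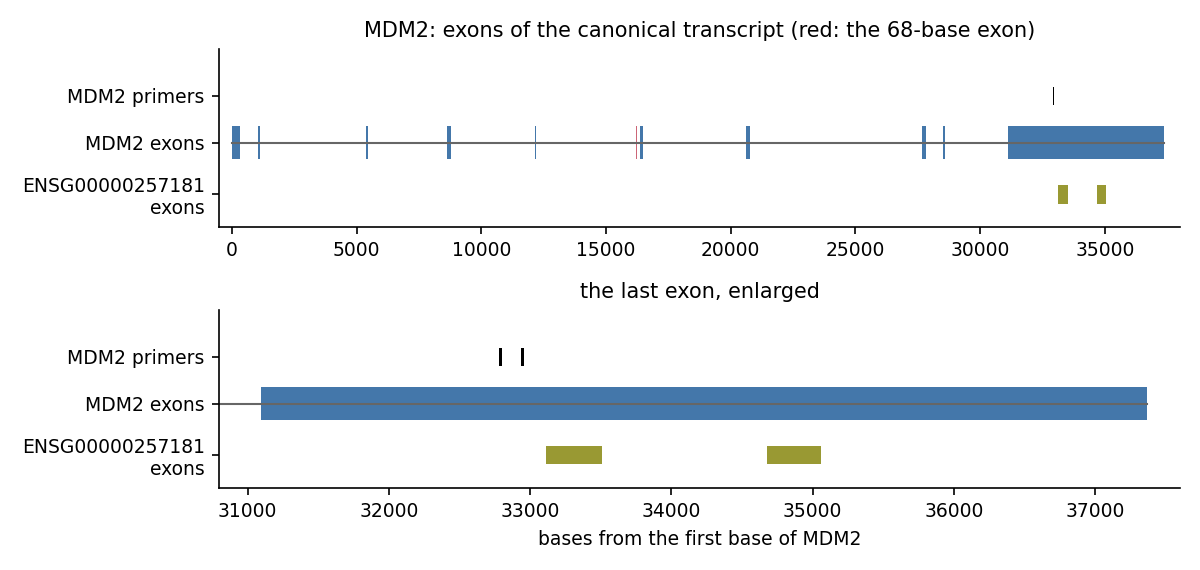
Map of MDM2 with the exons of the canonical transcript (blue, the 68-base exon in red), both RT-qPCR primers (black) and the exons of the lncRNA gene ENSG00000257181 on the opposite strand (olive); the horizontal axis gives bases from the first base of MDM2. The primers lie in the last exon, 16526 bases past the 68-base exon, and the lncRNA exons lie over the same last exon.

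MDM2 (ENSG00000135679, chromosome 12, 68808177 to 68845544) had a lower mean in siSHMT2, but its groups overlapped and the difference did not pass the test. Its counts were 51, 49 and 80 in the siNC libraries and 20, 44 and 68 in the siSHMT2 libraries. Its FPKM values were 8.33, 9.9 and 12.0 for siNC and 5.0, 7.17 and 11.1 for siSHMT2. siSHMT2 replicates 1 and 2 were below every siNC library, while siSHMT2 replicate 3 was above siNC replicates 1 and 2. Mean FPKM was 7.77 ± 3.11 with siSHMT2 and 10.1 ± 1.84 with siNC (SD, n = 3 each), with p = 0.4 by a two-sided exact permutation test. By edgeR the log2 fold change was -0.34 (standard error 0.24, adjusted p = 1.00), and its 95% interval spans a fold of 0.57 to 1.1 of the siNC level. It was -0.14 without siSHMT2 replicate 1 and -0.67 without siSHMT2 replicate 3. In bulk libraries such as these, fewer cells with a transcript and less of it per cell cannot be told apart.

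The MDM2 locus also holds the lncRNA gene ENSG00000257181 on the opposite strand. All 785 exonic bases of this gene lie over the noncoding part of MDM2's last exon and cover 9.45% of the exonic bases of MDM2. The lncRNA had 429, 347 and 451 counts in siNC and 299, 493 and 458 in siSHMT2, or 2477 in total against 312 for MDM2, which is 7.94-fold more. Its count was 5.64 to 8.41 times that of MDM2 in the siNC libraries and 6.74 to 14.9 times in the siSHMT2 libraries. Mean FPKM of the lncRNA was 732 ± 30.2 with siSHMT2 and 661 ± 13.6 with siNC (SD, n = 3 each). Its groups did not overlap, as in this direction for 3.67% of all genes with an FPKM above 0. The p was 0.1, the lowest an exact permutation test of this size can give. In log2 CPM after TMM normalization the groups overlapped, and the log2 fold change was 0.15 (standard error 0.11, adjusted p = 1.00 by edgeR). The library kit keeps the strand of the RNA, but the strand setting of the counting is not given in the sources used here, so reads of MDM2's last exon and reads of the lncRNA cannot be told apart with certainty. The same limit applies to the counts of all 9 genes and of the genes listed further on, since counts of a gene and of RNA from its opposite strand cannot be told apart without that setting. Exons of CPM overlap MDM2 by 133 bases on the opposite strand and had 23 counts in total. Among the other 8 genes, CDKN1A had an opposite-strand partner over at least 100 bases, the lncRNA DINOL, with 146 bases and 3 counts in total.

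MDM4 (ENSG00000198625, chromosome 1, 204516379 to 204558120) was the 1 gene of the 9 whose FPKM values did not overlap between the groups, with higher values in siSHMT2. Its counts were 4, 3 and 3 for siNC and 5, 5 and 13 for siSHMT2, too few to pass the filter on low counts. In FPKM, MDM4 stood at 0.487, 0.452 and 0.335 in siNC and 0.932, 0.608 and 1.59 in siSHMT2. Every siSHMT2 library lay above every siNC library, with an exact permutation p of 0.1, as low as this design allows, and 0.72 after adjustment over the 9 genes. Among all genes with an FPKM above 0, 3.67% had groups apart in this direction and 3.33% in the other. The summed counts were 10 in siNC and 23 in siSHMT2, a ratio of 2.51 after scaling to the library totals, with a 95% interval of 1.15 to 5.92 that covers counting error only. When edgeR was run without the filter, the log2 fold change of MDM4 reached 1.28 (standard error 0.65), with a 95% interval of 0.01 to 2.56 and an adjusted p of 0.84 over the 20836 genes with a count. Its groups were apart in log2 CPM too, as were those of 3.75% of the 20836 genes in this direction. Of the 23 siSHMT2 counts, 13 came from replicate 3.

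The FPKM ratio of MDM4 to MDM2, the 2 inhibitors of p53, was taken within each library, where the scaling of the library drops out. It was 0.0585, 0.0456 and 0.0279 in siNC and 0.186, 0.0847 and 0.142 in siSHMT2. The lowest siSHMT2 value was above the highest siNC value. The mean log2 ratio was -2.93 ± 0.58 with siSHMT2 and -4.57 ± 0.54 with siNC (SD, n = 3 each), a difference of 1.64, or 3.11-fold, at the lowest p the exact permutation test can reach here (p = 0.1). The ratio rests on 3 to 13 counts of MDM4 per library. The FPKM values of MDM4 alone were already apart in this direction, so the ratio is not a separate result. The share of other gene pairs with ratios apart was not computed.

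**Figure D2:**
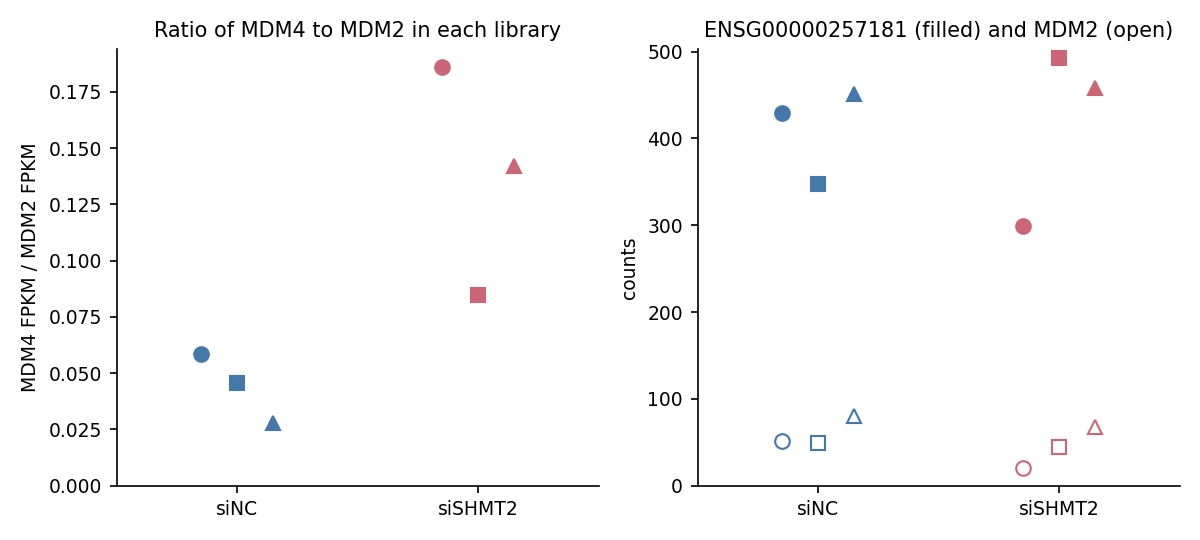
Left, FPKM of MDM4 divided by FPKM of MDM2 in each library (circle, square and triangle for replicates 1, 2 and 3), where the siNC points lie between 0.0279 and 0.0585 and the siSHMT2 points between 0.0847 and 0.186. Right, counts of the lncRNA gene ENSG00000257181 (filled) and of MDM2 (open) in the same libraries, where the lncRNA has the higher count in all 6.

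CDKN1A (ENSG00000124762, chromosome 6, 36676460 to 36687337) encodes p21, the inhibitor of cyclin-dependent kinases through which p53 arrests the cell cycle. Its counts were 23, 12 and 22 for siNC and 13, 21 and 18 for siSHMT2. Per length, CDKN1A stood at FPKM values of 12.4, 8.01 and 10.9 in siNC and 10.7, 11.3 and 9.74 in siSHMT2. All 3 siSHMT2 values lay within the range of the siNC values, and the means were 10.6 ± 0.795 and 10.4 ± 2.23 (SD, n = 3 each), with an exact permutation p of 0.9. Between the groups edgeR gave a log2 fold change of 0.02 (standard error 0.34, adjusted p = 1.00). Its 95% interval runs from a fold of 0.626 to 1.63, so these counts do not exclude a change within these bounds. The sign of this value turned without siNC replicate 2 (-0.09) and without siSHMT2 replicate 2 (-0.06).

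Both genes of the apoptotic arm had counts under the filter, so each is described by its values alone. BBC3 (ENSG00000105327, chromosome 19, 47220822 to 47232766) encodes PUMA, a BH3-only protein that binds the BCL2 survival proteins. It had 3 counts in each siNC library and 4, 2 and 0 in the siSHMT2 libraries. In FPKM the values were 1.99, 2.46 and 1.82 for siNC and 4.06, 1.32 and 0.0 for siSHMT2. The siSHMT2 libraries held both the highest and the lowest value (exact permutation p = 0.8), and the count of 0 allows an FPKM of up to 1.99, the value of 3 counts in that library.

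BAX (ENSG00000087088, chromosome 19, 48954815 to 48961798) encodes the pore-forming protein of the mitochondrial outer membrane. It had 7, 2 and 7 counts in siNC and 4, 8 and 6 in siSHMT2. Per length, BAX stood at FPKM values of 6.3, 2.23 and 5.79 in siNC and 5.52, 7.19 and 5.42 in siSHMT2. Apart from siNC replicate 2, which was low, the values of both groups overlapped, with means of 6.04 ± 0.997 for siSHMT2 and 4.77 ± 2.22 for siNC (SD, n = 3 each, exact permutation p = 0.6).

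GDF15 (ENSG00000130513, chromosome 19, 18374731 to 18389176) encodes a secreted cytokine of the TGF-beta superfamily that rises under many kinds of cell stress. It had the highest mean FPKM of the 9 genes and the lowest fold change of the 5 that were tested. Its counts were 12, 27 and 20 for siNC and 5, 15 and 12 for siSHMT2. The FPKM values of GDF15 were 9.93, 27.7 and 15.2 for siNC and 6.34, 12.4 and 9.96 for siSHMT2. siNC replicates 2 and 3 were above every siSHMT2 library, while siNC replicate 1 lay below siSHMT2 replicates 2 and 3. Mean FPKM was 9.56 ± 3.05 with siSHMT2 and 17.6 ± 9.1 with siNC (SD, n = 3 each, exact permutation p = 0.3). By edgeR the log2 fold change came to -0.79 (standard error 0.41), with a 95% interval from a fold of 0.324 to 1.03 and an adjusted p of 1.00. Without siNC replicate 2, the library with the highest value, the log2 fold change was -0.31.

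TP53I3 (ENSG00000115129, chromosome 2, 24077433 to 24085861) encodes a quinone oxidoreductase first described among p53-induced genes. It had 9, 4 and 5 counts in siNC and 4, 4 and 3 in siSHMT2 and did not pass the filter. In FPKM, TP53I3 stood at 6.66, 3.66 and 3.4 in siNC and 4.53, 2.96 and 2.23 in siSHMT2. siSHMT2 replicate 1 lay above siNC replicates 2 and 3, so the groups overlapped, with means of 3.24 ± 1.18 for siSHMT2 and 4.57 ± 1.81 for siNC (SD, n = 3 each, exact permutation p = 0.4).

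PPM1D (ENSG00000170836, chromosome 17, 60600193 to 60666280) encodes the phosphatase WIP1, which dampens p53 signalling after DNA damage. Its counts were 11, 10 and 10 for siNC and 9, 8 and 7 for siSHMT2. The FPKM values of PPM1D were 2.61, 2.93 and 2.17 for siNC and 3.27, 1.89 and 1.66 for siSHMT2. siSHMT2 replicate 1, which has the smallest library total, had the highest value, and the other siSHMT2 libraries the lowest. Mean FPKM was 2.27 ± 0.867 with siSHMT2 and 2.57 ± 0.38 with siNC (SD, n = 3 each, exact permutation p = 0.7). From edgeR the log2 fold change was -0.22 (standard error 0.49, adjusted p = 1.00), with a 95% interval of -1.2 to 0.76.

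RRM2B (ENSG00000048392, chromosome 8, 102204502 to 102238961) encodes the p53-inducible small subunit of ribonucleotide reductase, which supplies deoxynucleotides for DNA repair and for mitochondrial DNA. It had the highest fold change of the 5 tested genes. Its counts were 11, 5 and 10 for siNC and 3, 18 and 26 for siSHMT2. In FPKM, RRM2B stood at 2.82, 1.59 and 2.35 in siNC and 1.18, 4.6 and 6.68 in siSHMT2. siSHMT2 replicates 2 and 3 were above every siNC library, and siSHMT2 replicate 1 was below all of them. The mean was 4.15 ± 2.78 with siSHMT2 and 2.25 ± 0.622 with siNC (SD, n = 3 each, exact permutation p = 0.4). In edgeR this came to a log2 fold change of 0.94 (standard error 0.47, adjusted p = 1.00), a fold of 1.92 with a 95% interval of 0.999 to 3.67. That log2 fold change was 1.30 without siSHMT2 replicate 1 and 0.47 without siSHMT2 replicate 3.

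**Figure D3:**
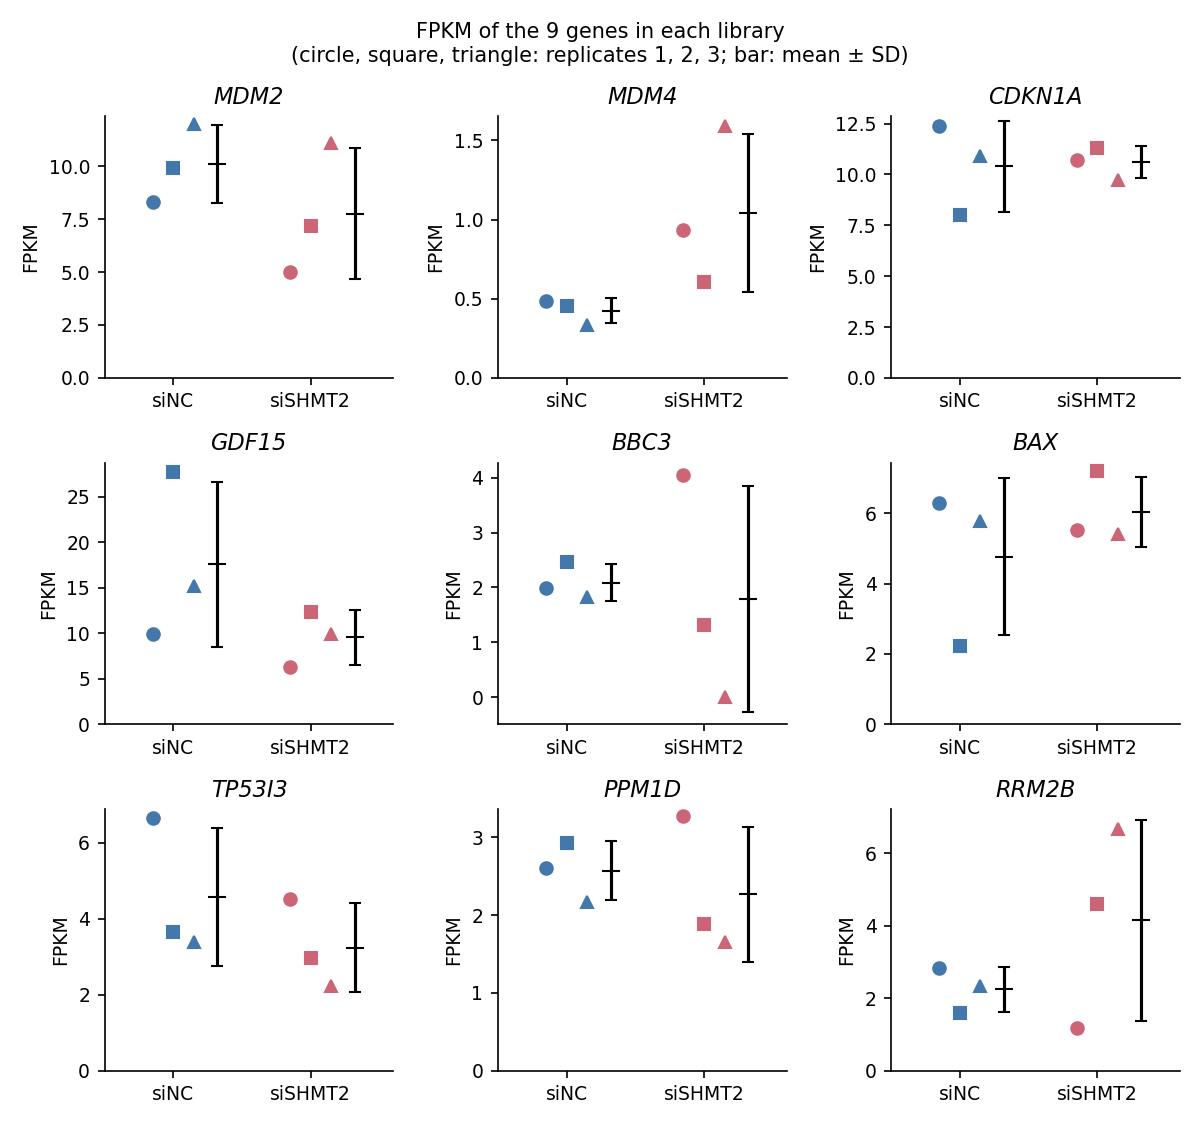
FPKM of each of the 9 genes in the 3 siNC and 3 siSHMT2 libraries (circle, square and triangle for replicates 1, 2 and 3), with the mean and SD of each group as a bar. MDM4 is the 1 gene whose siSHMT2 points, from 0.608 to 1.59, all lie above its siNC points, and the other 8 genes overlap.

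The filter on low counts was passed by 5 of the 9 genes (MDM2, CDKN1A, GDF15, PPM1D and RRM2B). By edgeR, 0 of the 5 reached an adjusted p under 0.05 and 0 an unadjusted one, where 3.84% of all tested genes had one. DESeq2 and limma on log2 FPKM also gave 0 of the 5 at either threshold. In log2 CPM the groups overlapped for all 5, while 9.20% of the tested genes had groups that did not. A log2 fold change above 0 was found for 2 of the 5, against 49.8% of the tested genes, and the median was -0.22, from -0.79 for GDF15 to 0.94 for RRM2B, against -0.00 over all tested genes. In mean FPKM, 4 of the 9 genes were higher in siSHMT2 (MDM4, CDKN1A, BAX and RRM2B) and 5 were lower. The 9 genes together held 16.0, 17.4 and 18.0 of every 100000 counts in siNC and 12.6, 15.3 and 18.8 in siSHMT2, ranges that overlapped.

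**Figure D4:**
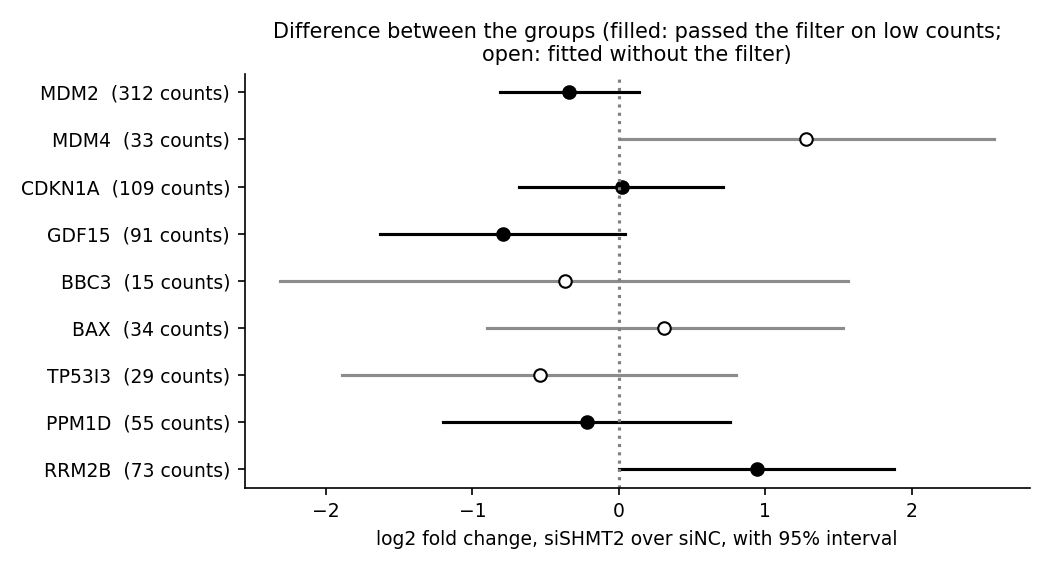
Log2 fold change of siSHMT2 over siNC for each of the 9 genes, with its 95% interval and the total count over the 6 libraries; filled points passed the filter on low counts and open points come from the fit without it. The intervals of the 5 filled points include 0, that of RRM2B at its edge, and the open point of MDM4 has an interval from 0.01 to 2.56.

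The FPKM values put the 9 genes in the order GDF15, CDKN1A, MDM2, BAX, TP53I3, RRM2B, PPM1D, BBC3 and MDM4, with means over the 6 libraries of 13.6, 10.5, 8.92, 5.41, 3.91, 3.2, 2.42, 1.94 and 0.733. In all 8 pairs of neighbours in this order the ranges over the libraries overlapped. MDM4 had the lowest FPKM of the 9 genes in 5 of the 6 libraries and BBC3 in the other, where it had 0 counts. GDF15 was the highest in 3 libraries, CDKN1A in 2 and MDM2 in 1. Among all tested genes, 60.5% had a lower mean FPKM than GDF15 and 48.2% a lower one than MDM2, while 0.111% had a lower one than MDM4.

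The genes whose log2 CPM followed MDM2 most closely over the 6 libraries, among 4773 genes with 10 or more counts in each library, were ACTR3 (Pearson's r = 0.986), the antisense gene CBR1-AS1 (r = 0.985) and BIRC3 (r = 0.98). CDKN1A, the only other member with as many counts, had r = -0.45 with MDM2. These values describe 6 libraries that share their depth and scaling, and the highest r of 4773 genes is high by selection.

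Other genes of the p53 pathway were counted from 4 lists that were chosen by function. Of 40 other p53 targets, 18 passed the filter, and 0 had an adjusted or an unadjusted p under 0.05 by edgeR. Their log2 fold changes were above 0 for 12 genes and below 0 for 6, from -0.78 for DRAM1, a lysosomal membrane protein of autophagy, to 0.59 for the RNA-binding protein ZMAT3, with a median of 0.05. The most abundant were PERP, a protein of desmosomes, at 81.8 ± 5.6 FPKM in siNC and 85.1 ± 34.7 in siSHMT2 (SD, n = 3 each), the death receptor TNFRSF10B, at 31.4 ± 2.53 and 30.9 ± 4.51, and the DNA damage sensor DDB2, at 23.9 ± 3.83 and 23.5 ± 4.56. In each of these 3 genes the groups overlapped. IER5 was the 1 gene of the 18 with groups apart in log2 CPM, and it was lower in siSHMT2, at 8.41 ± 1.54 FPKM against 11.5 ± 1.41 (SD, n = 3 each). The share of all tested genes apart in that direction was 4.55%.

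Among 35 regulators of p53, 30 passed the filter, with a median log2 fold change of 0.01 and 18 genes above 0. The checkpoint kinase CHEK2, which phosphorylates p53 after DNA double-strand breaks, was the 1 gene of the 30 with an unadjusted p under 0.05, a share close to the 3.84% of all tested genes. It had 15, 10 and 13 counts in siNC and 3, 6 and 6 in siSHMT2. Every siSHMT2 library was below every siNC library, at 2.64 ± 0.389 FPKM against 6.26 ± 0.791 (SD, n = 3 each). Its log2 fold change was -1.19 (standard error 0.51, adjusted p = 1.00 by edgeR). Including CHEK2, 4 of the 30 had groups apart in log2 CPM, 3 higher and 1 lower, beside 4.65% and 4.55% of all tested genes. RPL5 and RPL11, ribosomal proteins that bind MDM2, had log2 fold changes of -0.05 and -0.03 (standard errors 0.13 and 0.12), and NPM1, a nucleolar protein that binds MDM2, had one of 0.05 (standard error 0.12).

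Of 14 other genes of the BCL2 family, to which BAX and BBC3 belong, 5 passed the filter, with a median log2 fold change of 0.17. MCL1, a survival protein of the family, was the 1 gene of the 5 with an unadjusted p under 0.05, where 3.84% of all tested genes had one. Its counts were 97, 65 and 118 for siNC and 33, 65 and 81 for siSHMT2, and its mean FPKM was 17.6 ± 4.13 with siSHMT2 and 25.6 ± 3.77 with siNC (SD, n = 3 each). Its log2 fold change was -0.52 (standard error 0.19, adjusted p = 1.00 by edgeR), and its groups were apart in log2 CPM, as in 4.55% of all tested genes in this direction, and overlapped in FPKM. The log2 fold change of the BH3-only gene BID stood at 0.17 (standard error 0.24), and that of the survival gene BCL2L1 at -0.27 (standard error 0.25). Of 8 genes of ribonucleotide reductase and of CDK inhibitors, the families of RRM2B and CDKN1A, 6 passed the filter, and 0 had an unadjusted p under 0.05 by edgeR. The groups of CDKN2B, an inhibitor of CDK4 and CDK6, were apart, and 4.65% of all tested genes were apart in this direction. CDKN2B was higher in siSHMT2, at 10.7 ± 1.78 FPKM against 7.5 ± 0.69 (SD, n = 3 each), which edgeR put at 0.54 in log2 fold change (standard error 0.29, adjusted p = 1.00). RRM1, the large subunit of ribonucleotide reductase, and RRM2, the S-phase form of the small subunit, had log2 fold changes of -0.09 (standard error 0.25) and -0.12 (standard error 0.21), beside 0.94 for RRM2B. CDKN2A, the locus of p16 and of the MDM2 inhibitor p14ARF, had one of -0.36 (standard error 0.36).

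**Figure D5:**
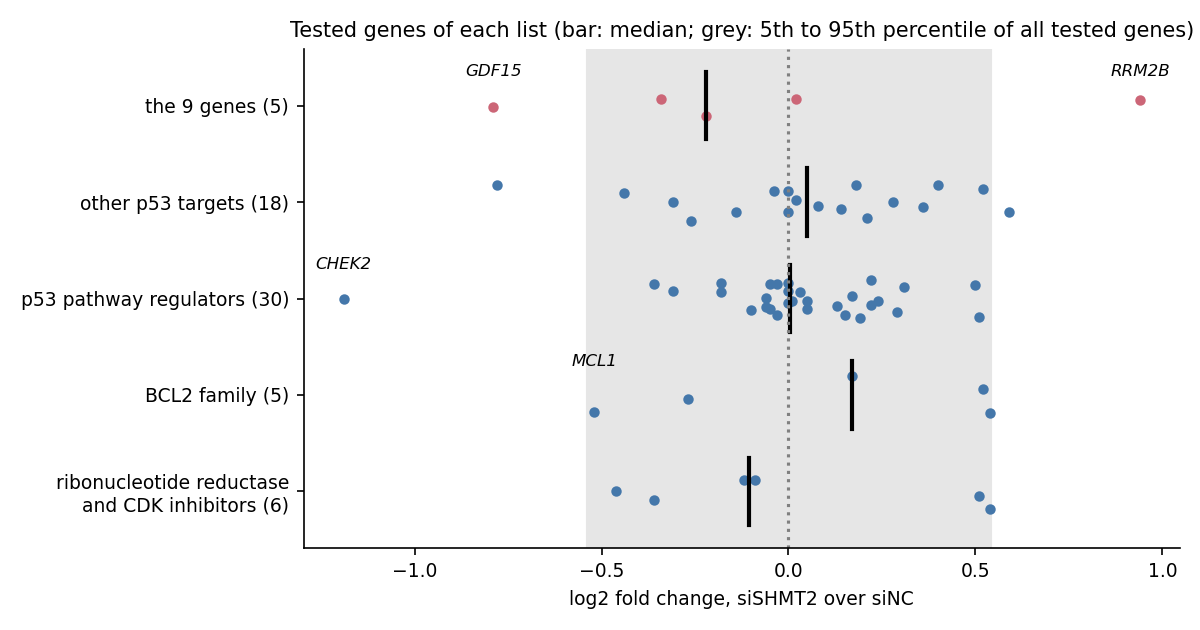
Log2 fold change of siSHMT2 over siNC for each tested gene of the 9 genes (red) and of the 4 lists (blue), with the number tested in parentheses, the median as a bar and the 5th to 95th percentile of all 7207 tested genes in grey. GDF15 and RRM2B lie outside the grey range at -0.79 and 0.94, as do DRAM1, ZMAT3 and CHEK2 at -0.78, 0.59 and -1.19, and the list medians lie between -0.22 and 0.17.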

How the data were processed

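RNA-seq libraries of HT-1376 cells (3 siNC, 3 siSHMT2) were analysed from the deposited tables. Per the labels and the methods, mRNA was captured on beads and made into strand-specific libraries. The submitters' processing notes name FastQC 0.11.9, fastp 0.23.4, HISAT2 2.2.1, DESeq2 1.42.1 and GRCh38. The counting program, its strand setting and its annotation release are not given in the sources used here. The counts deposited by the authors are whole reads per gene without normalization. The FPKM values deposited by the authors equal the count divided by the listed gene length and the summed counts of the library.

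Library totals of 533689 to 890574 counts limit the precision of low genes, and the median count of a tested gene was 25. Counts were compared in R 4.3.3 with edgeR 4.0.16 (TMM, filterByExpr, two-sided quasi-likelihood test, Benjamini-Hochberg adjustment over 7207 genes, no replicate block). The biological coefficient of variation was 0.127. FPKM values were compared with the two-sided exact permutation test of scipy 1.17.1. Log2 CPM used a prior count of 2. Genes under the filter were fitted without it. Intervals are at 95%. Alternatives were DESeq2 1.42.0, RLE size factors, library size only, no filter, 10 or more counts per library, limma 3.58.1 after a log2 transform (FPKM + 1 or FPKM + 0.1), a replicate block, and leaving out each library. The edgeR comparison was tested on simulated counts.

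Of the 63241 listed genes, 62666 had a position in GENCODE release 44. Primer and exon sequences were matched to GRCh38. The genes and lists were chosen with earlier results of these data known. Genes named were the 9 genes, SHMT2, the genes of each list with an unadjusted p under 0.05 or among the 3 most abundant, the 3 genes most like MDM2, and opposite-strand partners overlapping by at least 100 bases. IER5, DRAM1, ZMAT3 and CDKN2B were named after their values were seen.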

Additional observations from a re-analysis of the deposited data

How the results depend on the processing

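All 9 genes were tested without the filter on low counts, 2 with at least 10 counts in every library, and 5 in each other alternative. No tested gene of the 9 had an adjusted p under 0.05 in any of the 14 alternatives. Over all tested genes the number was 0 to 1 when each library was left out in turn and 0 otherwise. Among the tested genes of the 9, the number with an unadjusted p under 0.05 was 0 as reported and 1 with RLE size factors (RRM2B). It was 3 without the filter (MDM4, GDF15 and RRM2B) and 0 to 2 with 1 library left out. The latter were GDF15 and RRM2B without siNC replicate 1, and RRM2B without siSHMT2 replicate 1. GDF15 was the gene without siSHMT2 replicate 2, and MDM2 (log2 fold change -0.67) without siSHMT2 replicate 3. The share over all tested genes was 3.84% as reported, 3.83% with RLE size factors and 3.35% without the filter. With 1 library left out that share was 3.83% to 5.33%. Over all genes the number was 117 with DESeq2 and 699 without the filter, against 277, and the groups did not overlap for 1459 genes without the filter and 429 with at least 10 counts in every library, against 663. Without the filter 1 of the 9 genes, MDM4, had groups apart, as did 3.75% of all genes fitted in this direction. The filters changed the number of genes tested (20836 and 4774, against 7207), and for the other settings the cause was not tested.

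MDM2 stayed below 0 in all alternatives, from -0.67 to -0.14, GDF15 from -1.09 to -0.31 and PPM1D from -0.50 to -0.02, and RRM2B stayed above 0, from 0.47 to 1.30. GDF15, PPM1D and RRM2B could not be tested with at least 10 counts in every library. Signs turned for CDKN1A without siNC replicate 2 (log2 fold change -0.09, FPKM difference -1.05) and without siSHMT2 replicate 2 (-0.06 and -0.196), and in FPKM difference for BBC3 (0.601) and PPM1D (0.00847) without siSHMT2 replicate 3 and for BAX without siNC replicate 2 (-0.00103). With 1 library left out, CDKN1A ranged from -0.09 to 0.14 in log2 fold change and from -1.05 to 1.14 in FPKM difference, and the FPKM difference ranged from -1.43 to 0.601 for BBC3, from -0.00103 to 2.04 for BAX and from -0.793 to 0.00847 for PPM1D. The log2 difference of the MDM4 to MDM2 ratio was 1.34 to 1.95 with 1 library left out, where the exact permutation test cannot give a p below 0.2.

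Deviations of libraries with the same replicate number correlated at -0.015, 0.048 and -0.012, so the numbers were not taken to pair them. With the replicate number as a block, 1 of the 5 tested genes of the 9 (GDF15, log2 fold change -0.85) had an unadjusted p under 0.05. Over all tested genes, 0 had an adjusted p under 0.05 and 304 (4.22%) an unadjusted one.

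The number of counts limits the lowest genes most. MDM4, BBC3, BAX and TP53I3 had 15 to 34 counts each over the 6 libraries, too few for the filter, and their differences rest on FPKM values alone or on the fit without the filter.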
